A study of Homo sapiens with 12 samples.

Results

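Loss of the GATAD2A subunit of the NuRD complex was set directly against loss of the enzymes HDAC2 and KDM1A, using the 2 siGATAD2A libraries and the 4 libraries of siHDAC2 (2) and siKDM1A (2), which are 6 of the 12 RNA-seq libraries of the study. The libraries were chosen by their treatment label alone. The mean of the 2 siHDAC2 libraries and the mean of the 2 siKDM1A libraries received equal weight, and no control library entered the comparison, so a difference says how the knockdowns stand to each other and not how either stands to untreated cells. All libraries came from HEK293T, an embryonic kidney line that carries the SV40 large T antigen, grown in DMEM with serum and transfected with siRNA. The paper's methods list 1 siRNA sequence for each of the 3 targets, so an effect of the target and an effect of that siRNA sequence cannot be told apart, and the labels give no time after transfection. The control group siCTL (2 libraries) is printed as a further value where it helps to place a gene, and takes no part in any test.

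NuRD couples a chromatin remodelling ATPase, CHD3, CHD4 or CHD5, to the histone deacetylases HDAC1 and HDAC2. The MTA proteins bind the deacetylases and RBBP4 or RBBP7, MBD2 or MBD3 joins in, and GATAD2A or its paralog GATAD2B links the MBD and deacetylase side to the ATPase without having a catalytic activity of its own. KDM1A removes methyl groups from histone H3 lysine 4. It is best known from the CoREST complex, which it shares with HDAC1 and HDAC2, and has also been found with NuRD. The 3 knockdowns therefore touch a bridging subunit, an enzyme used by several complexes, and an enzyme whose main partner complex is another one.

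The targeted transcripts stood where the labels place them. GATAD2A (chr19:19496635-19619741 in GRCh37, plus strand) was measured at 50.8 and 49.1 CPM (counts scaled to a library's total) in siGATAD2A, at 175 and 182 in siHDAC2 and at 200 and 190 in siKDM1A. Both siGATAD2A values lay far below the 4 others and below the siCTL values of 176 and 161, and the difference from the enzyme knockdowns was -1.90 ± 0.05 (SE) on the log2 scale, a 3.73-fold lower level. HDAC2 was at 39.2 and 39.5 CPM in siHDAC2 and between 197 and 211 in the 4 other libraries. KDM1A was at 27.8 and 28.6 CPM in siKDM1A and between 143 and 173 in the 4 others. The 2 enzymes thus appear as higher in siGATAD2A by design of the groups, with log2 differences of 1.13 and 1.07, and they are left out of what follows unless named. Protein was not measured here.

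The 6 libraries held between 20613474 and 28648657 read pairs on genes, enough for a replicate spread (biological coefficient of variation) of 3.19% in the fit. Normalization factors lay between 0.9937 and 1.005, and 0.662% to 0.722% of the counts were mitochondrial. The 2 replicates of each group differed by more than counting noise, a chi-square divided by its degrees of freedom being 1.81 in siGATAD2A, 3.19 in siHDAC2 and 3.1 in siKDM1A. Nothing in the labels says that replicates came from separate cultures, so the p-values below measure the spread between these libraries, which may be technical. The labels name a pair of sequencing companies without saying which library went where, so a batch of this kind could not be checked. Of 12 markers of the line 9 passed the filter on low levels, with KRT8 at 930 CPM or more in all 6 libraries, while the kidney factors PAX2 and PAX8 and the neurofilament gene NEFM did not, and 9 of 10 blood and 5 of 6 endothelial markers were below it. The endothelial marker that passed, VWF, was at 8.88 to 13 CPM.

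How far did loss of the scaffold differ from loss of the enzymes? Of 12539 coding genes tested, 1572 (12.5%) were called higher and 2244 (17.9%) lower in siGATAD2A than in the mean of siHDAC2 and siKDM1A, 30.4% in all. Calls needed a fold of at least 1.2 and an adjusted p (Benjamini-Hochberg, over every gene tested) no larger than 0.05 in edgeR's quasi-likelihood test. Most differences were small. The median fold was 1.3 among genes called higher and 1.39 among those called lower, and 78 and 205 genes passed 2-fold. Among the largest differences in genes with a mean of at least 2 CPM were the ERK pathway genes SPRY4, ETV4 and ETV5 on the higher side and the collagen COL3A1, the heme oxygenase HMOX1 and the cytokine GDF15 on the lower side. In bulk RNA, a lower level in every cell and fewer cells with the transcript cannot be told apart.

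**Figure D1:**
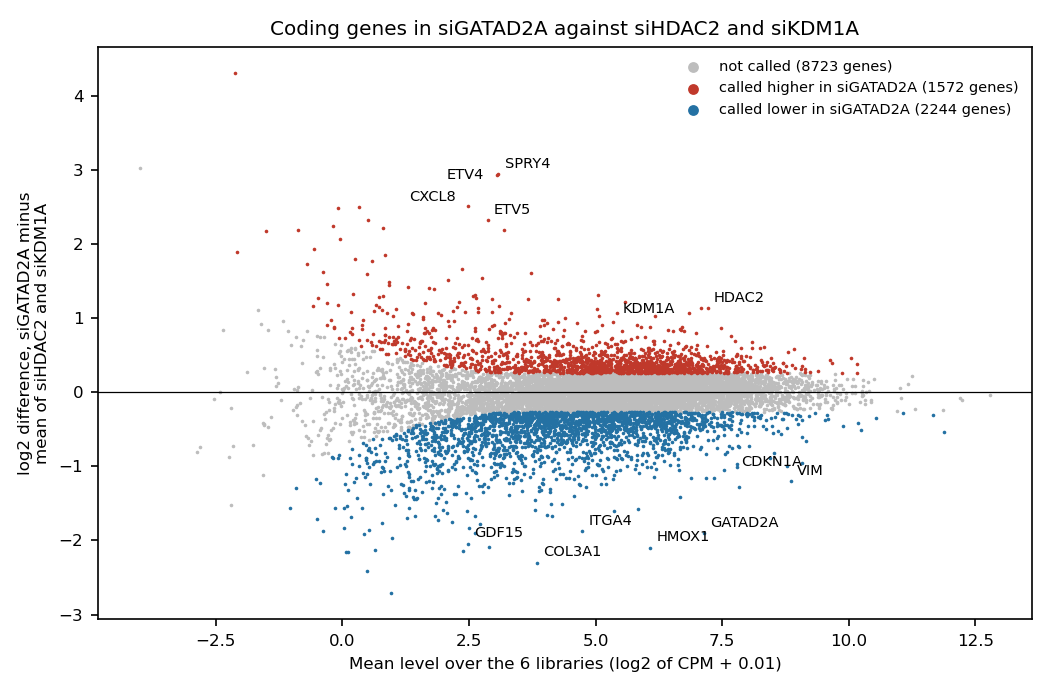
Each point is a coding gene, with its mean level over the 6 libraries on the x axis (log2 of CPM + 0.01) and the log2 difference of siGATAD2A from the mean of siHDAC2 and siKDM1A on the y axis. Genes called higher (1572) are red, genes called lower (2244) blue and the others grey, and the named genes include the 3 targeted ones.

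Each enzyme knockdown on its own gave similar numbers. Against siHDAC2, 1597 genes (12.7%) were higher and 2175 (17.3%) lower in siGATAD2A, 30.1% in all. Against siKDM1A, 1708 genes (13.6%) were higher and 2379 (19%) lower, 32.6% in all. The higher ones were 41.8% of these calls, and 52.5% after a correction for GC content or for exonic length. The same fit called 804 genes (6.41%) higher and 1059 (8.45%) lower in siHDAC2 than in siKDM1A, 14.9% in all. These comparisons share libraries, so their sizes are given side by side without a test between them.

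In 906 genes (7.23%) the level in siGATAD2A was higher than in each of the enzyme knockdowns by separate calls, and in 1546 genes (12.3%) it was lower than in each. Of the genes called higher against the mean, 306 were called against siHDAC2 only and 347 against siKDM1A only, while 13 were called against neither alone. Of the genes called lower, 291 were called against siHDAC2 only, 400 against siKDM1A only and 7 against neither. Without any test, both siGATAD2A libraries lay above all 4 others in 27.7% of the genes and below all 4 in 27.7%. The mean of the siCTL libraries, set beside these genes as a description, lay between siGATAD2A and the nearer enzyme knockdown in 413 of the 906 higher genes (45.6%) and in 651 of the 1546 lower ones (42.1%). It lay beyond both enzyme knockdowns, on the side away from siGATAD2A, in 257 (28.4%) and 457 (29.6%), and beyond siGATAD2A in 31 (3.42%) and 97 (6.27%).

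The genes furthest above the enzyme knockdowns included 3 that are textbook outputs of receptor tyrosine kinase signalling through ERK. SPRY4, which encodes a Sprouty inhibitor of that pathway, was at 19 CPM in both siGATAD2A libraries, at 1.29 and 1.11 in siHDAC2 and at 4.83 and 5.32 in siKDM1A. The siGATAD2A level stood above every other library, siCTL at 3.44 and 3.07 included, and siHDAC2 was below siCTL. The log2 difference was 2.95 ± 0.12, a 7.72-fold higher level (edgeR adjusted p = 4e-24), made of 4.0 against siHDAC2 and 1.90 against siKDM1A. ETV4, an ETS family transcription factor, followed almost the same steps with 18.2 and 18.8 CPM in siGATAD2A, 1.14 and 1.15 in siHDAC2 and 5.22 and 4.96 in siKDM1A. Its relative ETV5 was at 14.9 and 15.9 CPM in siGATAD2A, at 2.48 and 2.08 in siHDAC2 and at 4.04 and 4.32 in siKDM1A. For ETV5, siCTL (4.29 and 5.07) was near or just above siKDM1A, and the log2 difference from the enzymes was 2.32 ± 0.12.

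The other leading higher genes came from unlike families. CXCL8, the chemokine interleukin 8, was at 11.6 and 11.9 CPM in siGATAD2A, at 1.44 and 0.790 in siHDAC2 and at 3.82 and 3.91 in siKDM1A, a log2 difference of 2.52 ± 0.14. H1-6, a linker histone known from testis, was at 19.2 and 19.1 CPM against 2.83 to 5.36 in the 4 enzyme libraries, and siCTL (5.77 and 6.05) was close to the latter. EBF2, a transcription factor of the early B cell factor family, was at 12.5 and 11.4 CPM in siGATAD2A and at 3.52 to 4.35 in the enzyme knockdowns, all of which were above siCTL at 1.27 and 1.07. The actin-like gene ACTBL2 (log2 difference 1.61), the membrane protein gene TMEM132E (1.66), the sodium channel gene SCN4A (1.52) and TEKTIP1 (1.42) completed the 10. SCN4A exceeded 0.5 FPKM only in siGATAD2A (0.907, against 0.369 in siHDAC2 and 0.269 in siKDM1A). It was thus tested only through the group where it is high. TEKTIP1 was lost with counts taken without regard to strand, where its difference was 0.18.

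**Figure D2:**
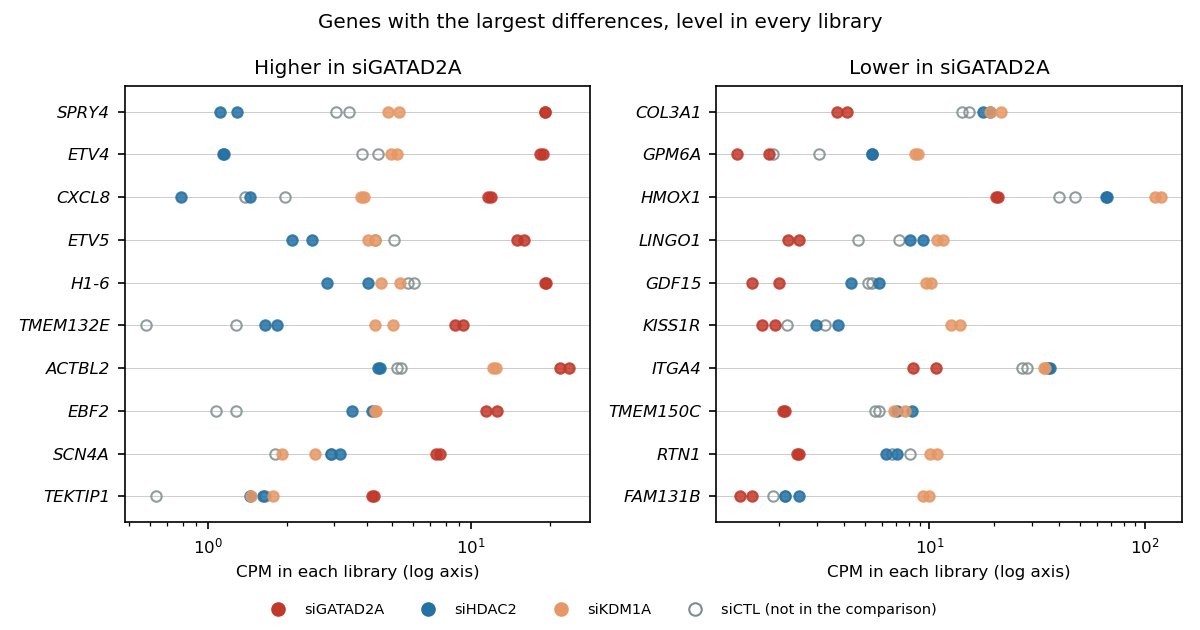
CPM of each library on a log x axis for the 10 genes with the largest differences in each direction, with siGATAD2A in red, siHDAC2 in blue, siKDM1A in orange and siCTL as open grey points that took no part in the comparison. In each row both red points lie outside the range of the 4 blue and orange points, from 19 against at most 5.32 CPM for SPRY4 to 4.15 at most against at least 17.7 CPM for COL3A1.

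On the lower side, COL3A1, the chain of fibrillar type III collagen, was at 4.15 and 3.71 CPM in siGATAD2A, at 17.7 and 19.2 in siHDAC2 and at 21.6 and 19.1 in siKDM1A. The siCTL values of 14.2 and 15.2 were near the enzyme knockdowns, so siGATAD2A was the group that stood apart. The level was 4.92-fold lower, with a log2 difference of -2.30 ± 0.11 (edgeR adjusted p = 4.5e-21). ITGA4, the integrin alpha 4 subunit that pairs with beta 1 or beta 7, had the same shape, with 8.42 and 10.7 CPM in siGATAD2A, 33.9 to 36.3 in the 4 enzyme libraries and 27.0 and 28.5 in siCTL. HMOX1, which degrades heme and is a standard target of the oxidative stress factor NRF2, was spread over all groups, with 20.8 and 20.3 CPM in siGATAD2A, 66.1 and 67.1 in siHDAC2 and 119 and 112 in siKDM1A. Here siCTL, at 47.5 and 40.1 CPM, lay between siGATAD2A and the enzyme knockdowns.

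GDF15, a stress-induced cytokine of the TGF-beta superfamily, was at 1.49 and 2.0 CPM in siGATAD2A, at 4.31 and 5.85 in siHDAC2 and at 9.62 and 10.2 in siKDM1A. Its log2 difference was -2.04 ± 0.18. Several of the remaining genes are known from neurons, namely the membrane glycoprotein gene GPM6A (-2.14), LINGO1 (-2.09), which encodes a part of a Nogo receptor complex, and the reticulon gene RTN1 (-1.77). The kisspeptin receptor gene KISS1R was at 1.92 and 1.66 CPM in siGATAD2A, at 2.98 and 3.77 in siHDAC2 and at 12.6 and 13.9 in siKDM1A. Most of its log2 difference of -1.90 came from siKDM1A (-2.88) rather than siHDAC2 (-0.93). FAM131B likewise had -0.72 against siHDAC2 and -2.77 against siKDM1A, and it lost its call when the 4 enzyme libraries were taken as 1 group. It exceeded 0.5 FPKM only in siKDM1A (1.5, against 0.358 in siHDAC2 and 0.219 in siGATAD2A). It was thus tested only through the group where it is high. TMEM150C (-1.83) had nearly equal differences from both.

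A part of this pattern was shared by most members of a list, which also holds SPRY4, ETV4 and ETV5 from above. The ERK pathway switches on its own inhibitors, and a list of 22 such feedback genes and ETS factors was taken, of which 20 passed the filter on low levels. Of the 20, 14 were called higher in siGATAD2A and 1 lower, and 12 of the 14 were called higher than each enzyme knockdown separately. DUSP6 (0.878 FPKM) and SPRED3 (0.843 FPKM), counted in the 14 and the 12, exceeded the filter of 0.5 FPKM in siGATAD2A alone. They were thus tested only through the group where they are high, and add no support. The median log2 difference was 0.83, beside 0.001 over all genes tested and a background of 12.5% called higher. It was 1.12 against siHDAC2 and 0.37 against siKDM1A. The list is described by its counts and was chosen with earlier results of these data known.

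All 3 Sprouty genes that were measured well, and all 3 genes of the related SPRED family, were among those called higher. Both families encode inhibitors of the step from receptor to RAF. SPRY2 was at 54.0 and 56.4 CPM in siGATAD2A, at 19 and 22.4 in siHDAC2, at 22.5 and 24.6 in siKDM1A and at 26.0 and 24.8 in siCTL. For this gene the 3 other groups differed little and siGATAD2A stood alone, 1.32 ± 0.06 higher on the log2 scale. SPRED2 repeated this with 50.9 and 50.6 CPM in siGATAD2A and 19 to 28.5 in the enzyme knockdowns. SPRED3 (log2 difference 1.2), SPRED1 (0.55) and SPRY1 (0.42) had smaller differences of the same direction.

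The phosphatases that act on MAP kinases were divided. DUSP6, a cytoplasmic phosphatase of ERK, was low throughout, at 3.37 and 3.41 CPM in siGATAD2A, at 1.04 and 0.539 in siHDAC2 and at 1.36 and 0.968 in siKDM1A, with a log2 difference of 1.85 ± 0.23. DUSP4 was at 35.5 and 36.3 CPM in siGATAD2A against 14.6 to 24.8 in the enzyme libraries. DUSP5, a nuclear ERK phosphatase, was at 21.5 and 22.0 CPM in siGATAD2A and at 17.7 in both siKDM1A libraries, so that its difference of 0.98 came mainly from siHDAC2 (6.05 and 7.47 CPM). DUSP1 was the member called lower, at 136 and 139 CPM in siGATAD2A, 144 and 149 in siHDAC2 and 192 and 197 in siKDM1A. DUSP2 (0.12), DUSP10 (-0.02) and DUSP7 (-0.18) were not called, nor were the receptors EPHA4 (-0.18) and IL17RD (-0.17).

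The receptor EPHA2 (0.50), the small MAF protein gene MAFF (0.87) and PHLDA1 (0.80) were called higher. Of the 2 members below the filter, SPRY3 was under 0.3 CPM everywhere. The other was the ETS factor gene ETV1, which was at 2.78 and 3.33 CPM in siGATAD2A, at 0.694 and 0.754 in siHDAC2, at 0.878 and 1.25 in siKDM1A and at 2.12 and 1.51 in siCTL. The siGATAD2A libraries were the highest here too, without a test. In all 14 genes called higher, the siCTL mean, not used in the comparison, lay below the siGATAD2A mean and above the siHDAC2 mean, by very little for EPHA2 (147 and 157 CPM in siCTL, 156 and 154 in siGATAD2A). The siKDM1A mean was above the siHDAC2 mean in all 14 as well, and it was below the siCTL mean in 8.

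**Figure D3:**
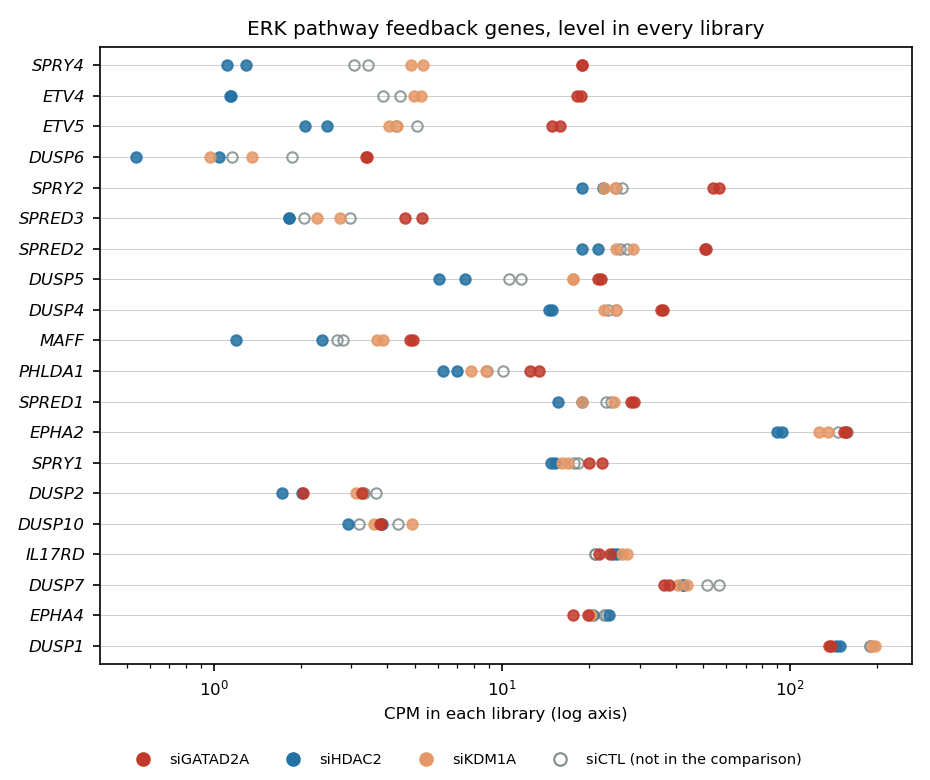
CPM of each library on a log x axis for the 20 ERK pathway feedback genes tested, ordered by their difference in the comparison, with siGATAD2A in red, siHDAC2 in blue, siKDM1A in orange and siCTL as open grey points. In the upper 14 rows the red points lie to the right of the blue and orange ones, as for SPRY2 with 54.0 and 56.4 CPM against at most 24.6.

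Since most of these genes were called higher, some promoters are shown (GRCh38.p14, 250 bases before to 50 after the start). They belong to the 3 genes with the largest differences among those with a single promoter in the RefSeq table used here. Capitals mark matches, on either strand, to the ETS core CCGGAA, the cyclic AMP response element TGACGTCA, the AP-1 site TGANTCA or the GC box GGGCGG.
SPRY4 (chr5:142324198-142324497, strand -): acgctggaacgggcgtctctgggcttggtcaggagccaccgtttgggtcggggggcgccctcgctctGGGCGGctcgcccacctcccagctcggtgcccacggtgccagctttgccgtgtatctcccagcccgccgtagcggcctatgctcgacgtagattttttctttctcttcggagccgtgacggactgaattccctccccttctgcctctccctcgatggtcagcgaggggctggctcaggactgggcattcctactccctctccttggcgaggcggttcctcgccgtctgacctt
DUSP6 (chr12:89352452-89352751, strand -): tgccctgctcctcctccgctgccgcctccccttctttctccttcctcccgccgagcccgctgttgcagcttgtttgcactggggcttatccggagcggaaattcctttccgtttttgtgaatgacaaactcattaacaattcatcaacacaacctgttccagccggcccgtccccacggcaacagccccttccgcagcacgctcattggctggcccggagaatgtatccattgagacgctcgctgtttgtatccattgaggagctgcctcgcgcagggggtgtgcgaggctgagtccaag
PHLDA1 (chr12:76031727-76032026, strand -): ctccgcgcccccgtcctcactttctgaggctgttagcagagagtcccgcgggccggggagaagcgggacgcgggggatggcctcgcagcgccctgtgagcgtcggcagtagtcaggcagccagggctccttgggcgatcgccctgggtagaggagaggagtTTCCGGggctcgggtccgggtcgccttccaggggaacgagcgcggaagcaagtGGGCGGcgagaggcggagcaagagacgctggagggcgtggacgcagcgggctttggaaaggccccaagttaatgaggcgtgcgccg
Promoters were listed for 18 of the 22 genes, 36 in all. An ETS core was found in 7 of the 36 (19.4%), beside 17.2% of all 35116 promoters of this length and 26.5% of those of genes tested. A cyclic AMP response element was found in 3 (8.33%), beside 1.85% of all promoters and 2.85% of those of genes tested. An AP-1 site was found in 3 (8.33%), beside 7.71% and 5.0%. A GC box was found in 24 (66.7%), beside 45.0% of all promoters and 67.1% of those of genes tested, so its share was that of tested genes. The matches are a description of these letters.

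Immediate early genes, which respond within minutes to the same signals, were mixed. Of 29 tested, 11 were called higher (37.9%) and 6 lower (20.7%), with a median of 0.20, beside 12.5% and 17.9% over all genes tested. IER3 was at 71.7 and 75.3 CPM in siGATAD2A, at 19.7 and 18.7 in siHDAC2 and at 52.8 and 50 in siKDM1A, a log2 difference of 1.23 ± 0.05. The nuclear receptor gene NR4A1 (1.03), ATF3 (0.88) and CCN2 (0.80), which encodes a matricellular growth factor, were also higher. On the other side FOS was at 10.2 and 10.3 CPM in siGATAD2A, at 23.3 and 26.4 in siHDAC2, at 18.1 and 18.8 in siKDM1A and at 49.0 and 50.9 in siCTL. All 3 knockdowns were thus below siCTL for FOS, with siGATAD2A lowest. EGR1 (-0.48), FOSB (-0.73) and MYC (-0.46) were lower too. FOSB was called lower than siHDAC2 (-1.3) and was not called against siKDM1A (-0.15). The median was 0.30 against siHDAC2 and -0.06 against siKDM1A, so the sign of the list depended on the enzyme.

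Genes activated by p53 formed the opposite pattern. Of 48 tested members of a list of 50, 2 were called higher and 23 lower in siGATAD2A, with a median log2 difference of -0.26, beside a background of 17.9% called lower. The median was -0.24 against siHDAC2 and -0.27 against siKDM1A, and 17 genes were called lower than each. CDKN1A, the inhibitor of cyclin-dependent kinases known as p21, was at 140 and 137 CPM in siGATAD2A, at 221 and 230 in siHDAC2 and at 232 and 227 in siKDM1A. The siCTL libraries, at 254 and 270, were higher still. The difference was -0.72 ± 0.04, a level about equally far from both enzymes.

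Members of several arms of the p53 response were included. APAF1, the core of the apoptosome, was at 53.1 and 53.6 CPM in siGATAD2A and at 97.7 to 114 in the 4 enzyme libraries, a log2 difference of -0.99 ± 0.05, with siCTL at 98.9 and 100. TP53INP1 (-0.85), BAX (-0.31) and BBC3 (-0.30) also promote cell death. MDM2, the ligase that degrades p53, was at 654 CPM in both siGATAD2A libraries and at 760 to 847 in the enzyme libraries. Among repair genes DDB2 (-0.48), XPC (-0.47), POLH (-0.55) and RRM2B (-0.30) were lower, and so was TIGAR (-0.91), a regulator of sugar phosphate metabolism of whose exonic length 18.1% is shared with another gene. XPC ran against siCTL in another way, since siCTL (41.8 and 39.5 CPM) was below siGATAD2A (44.4 and 43.9) and both enzyme knockdowns were above (58.2 to 64.4). The decoy receptor gene TNFRSF10D was the larger exception, at 54.9 and 58.4 CPM in siGATAD2A, 29.9 to 42.7 in the enzyme libraries and 26.7 and 24.8 in siCTL, and PLK2 (0.29) was the other.

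Many matrix and adhesion genes were likewise lower. Of 44 collagen, laminin and integrin genes tested (59 listed), 22 were called lower and 2 higher, with a median of -0.26. These shares of 50% and 4.55% stand beside 17.9% called lower and 12.5% called higher over all genes tested. Against siHDAC2 16 were lower and against siKDM1A 24, and 12 were lower than each. Apart from COL3A1, the fibrillar collagen genes COL5A2 and COL5A1 were affected. COL5A2 was at 11.2 and 11.6 CPM in siGATAD2A, 31.1 and 32.6 in siHDAC2, 30.1 and 27.1 in siKDM1A and 29.7 and 27.4 in siCTL, so that siGATAD2A alone was low, by -1.41 ± 0.08. COL5A1 was at 220 and 223 CPM in siGATAD2A, 378 and 410 in siHDAC2, 438 and 407 in siKDM1A and 283 and 287 in siCTL, so that the enzyme knockdowns were above and siGATAD2A below the control level. COL1A1, the main chain of type I collagen, was near siHDAC2 (-0.11) and lower than siKDM1A (-0.60).

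COL9A3, a chain of cartilage collagen IX, was at 7.71 and 7.04 CPM in siGATAD2A and 16.3 to 21.4 in the enzyme libraries. The basement membrane genes COL18A1 (-0.72), LAMB1 (-0.40), LAMA5 (-0.37) and LAMA1 (-0.34) were lower by less. Of the integrins, ITGA2 (-0.62) and ITGA3 (-0.46) were lower besides ITGA4. ITGAV, the alpha V subunit of receptors for fibronectin and vitronectin, went the other way, with 148 and 153 CPM in siGATAD2A, 81.7 to 88.1 in the 4 enzyme libraries and 93.5 and 94.0 in siCTL. The second gene called higher was COL7A1 (0.60), the anchoring fibril collagen.

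**Figure D4:**
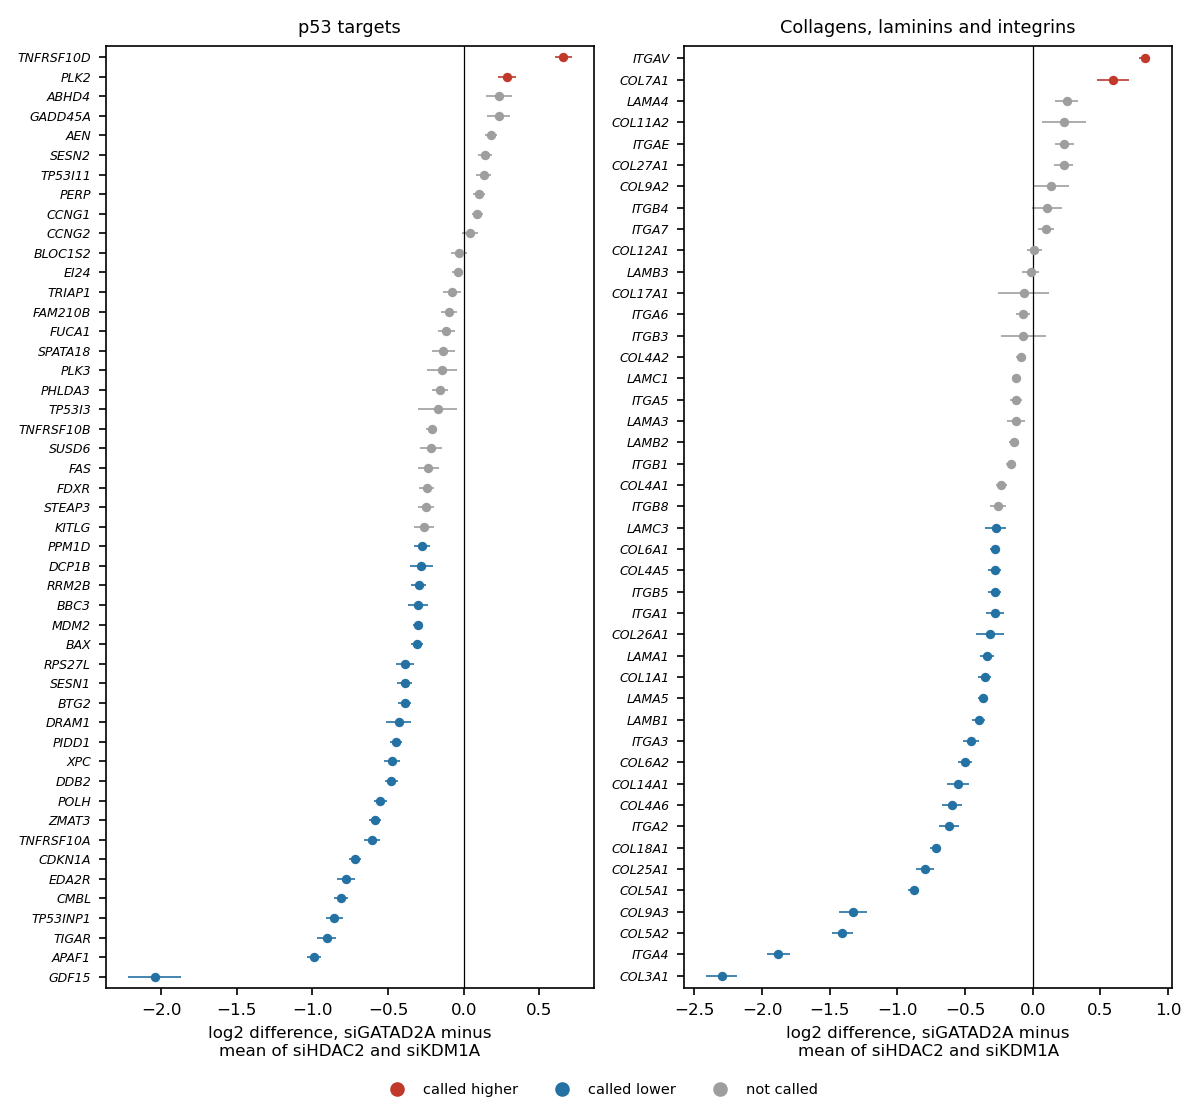
Log2 difference of siGATAD2A from the mean of siHDAC2 and siKDM1A (x axis, bars are ± 1 SE) for the 48 p53 targets and the 44 collagen, laminin and integrin genes tested, 1 gene a row, red for called higher, blue for called lower and grey for not called. On the left 23 genes are blue and 2 red, and on the right 22 are blue and 2 red, down to -2.30 for COL3A1.

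The fibroblast markers overlap this list. Of 10, 4 passed the filter and were called lower against the mean, beside 17.9% over all genes tested. COL3A1 and LUM were called lower than each enzyme knockdown, COL1A1 and PDGFRB lower than siKDM1A only. PDGFRB passed the filter only through siKDM1A (0.543 FPKM, against 0.425 in siHDAC2 and 0.311 in siGATAD2A), so its call is tied to the filter. The summed level of the 10 was 88.3 and 91.4 CPM in siGATAD2A, 109 to 161 in the enzyme libraries and 129 and 131 in siCTL. Most of it came from COL1A1, and 1 to 3 of the 10 were at 0 in a library. A part of another cell type in these values was not tested. Among the 9 tested markers of the line itself, 5 were lower (55.6%) and 2 higher (22.2%), beside 17.9% and 12.5% over all genes tested. Vimentin, the intermediate filament VIM, was at 248 and 245 CPM in siGATAD2A, 498 and 517 in siHDAC2, 615 and 645 in siKDM1A and 385 and 386 in siCTL. Both enzyme knockdowns were above and siGATAD2A below the control, a log2 difference of -1.20 ± 0.03. The keratins KRT8 (-0.41) and KRT18 (-0.27) and N-cadherin, CDH2 (-0.46), were lower by less, and the stem cell factor LIN28B (0.48) and GATA3 (0.30) were higher.

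Genes induced by interferon were lower in 17 and higher in 4 of 43 tested, with a median of -0.22, and 15 were lower than each enzyme knockdown. The shares were 39.5% lower and 9.3% higher, beside 17.9% and 12.5% over all genes tested. Most were weakly expressed. The helicase gene DDX60 was at 6.03 and 5.84 CPM in siGATAD2A, 12.6 and 15.5 in siHDAC2 and 10.9 and 13.6 in siKDM1A, with siCTL at 16.2 and 17.1. IFITM3, which blocks virus entry, was at 19.3 and 16.9 CPM against 28.0 to 31.5 in the enzyme libraries and 42.6 and 42.0 in siCTL. For both genes the order was siCTL, enzyme knockdowns, siGATAD2A. The nonclassical MHC gene HLA-E (-0.77), IFI6 (-0.95) and PARP14 (-0.49) were lower as well. HLA-F (0.52), HLA-B (0.34) and the RNA sensor gene RIGI (0.52) were higher, and since HLA-B shares 30.7% and RIGI 43.2% of their exonic length with other genes their values are uncertain. OAS3 (0.28) was the remaining one. HLA-B was called higher than siHDAC2 (0.65) and was not called against siKDM1A (0.03).

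Genes of the integrated stress and unfolded protein response were mixed, with 12 higher and 6 lower of 38 tested and a median of 0.10. That is 31.6% higher and 15.8% lower, beside 12.5% and 17.9% over all genes tested. ATF4, the transcription factor at the centre of the integrated stress response, was at 367 and 363 CPM in siGATAD2A, 217 and 222 in siHDAC2, 240 and 235 in siKDM1A and 179 and 189 in siCTL. The difference was 0.68 ± 0.03. PPP1R15A, a phosphatase subunit that ends the response, was at 111 and 108 CPM in siGATAD2A and 46.8 to 62.4 in the enzyme libraries, and CHAC1, which cleaves glutathione, was 1.41 ± 0.17 higher. The enzymes PSAT1 (0.37), SHMT2 (0.36) and MTHFD2 (0.29) of serine and folate metabolism and the factor XBP1 (0.46) were also higher. The disulfide isomerases PDIA4 (-0.32) and PDIA6 (-0.28) were lower. So were DDIT4, an inhibitor of mTORC1 signalling, at 59.2 and 56.5 CPM in siGATAD2A and 98.0 to 153 in the enzyme libraries, and GDF15, which the p53 list also holds.

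**Figure D5:**
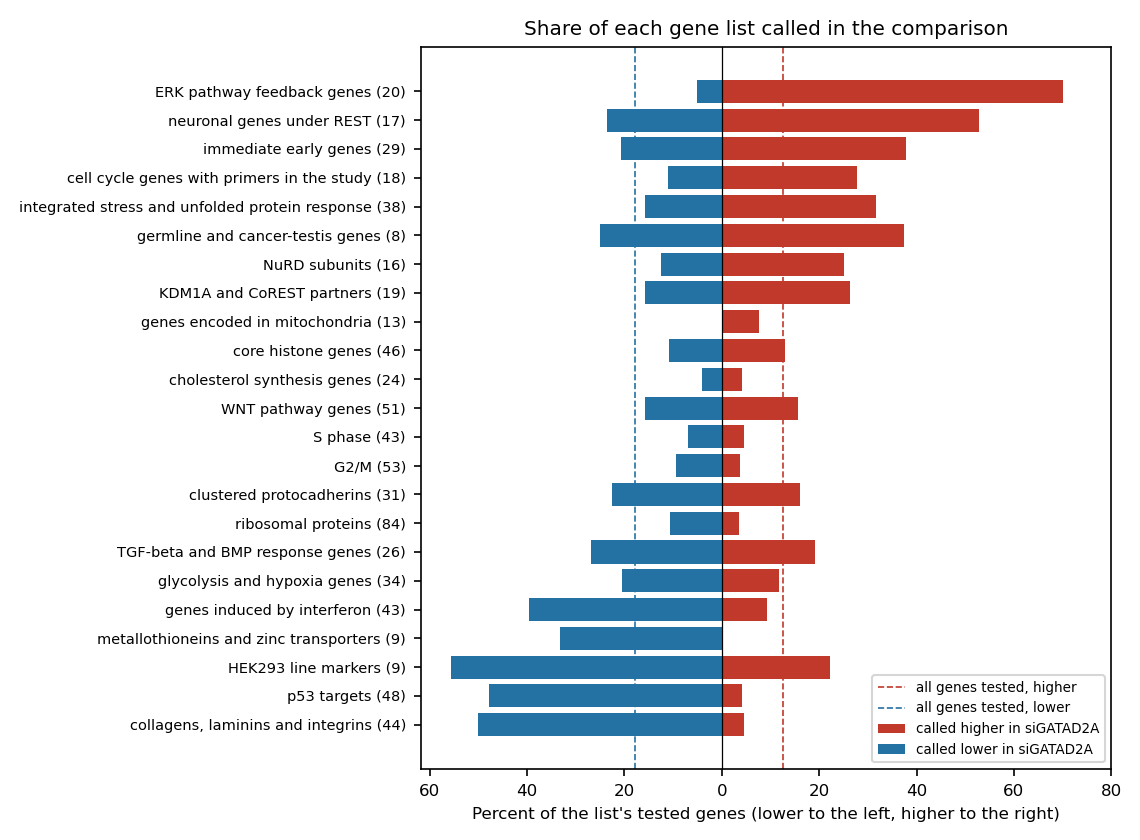
Percent of the tested genes of each list called higher (red, to the right) and lower (blue, to the left) in siGATAD2A, for lists with at least 8 genes tested, with that number in brackets and dashed lines at the shares over all genes tested, 12.5% and 17.9%. The ERK pathway feedback genes reach furthest to the right with 70% and the markers of the line, the matrix genes and the p53 targets furthest to the left with 55.6%, 50% and 47.9%.

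Among the other subunits of NuRD, the differences were small. The paralog GATAD2B was at 119 and 122 CPM in siGATAD2A and at 96.5 to 99.0 in the 4 enzyme libraries, with siCTL at 102 and 99.2. The siGATAD2A libraries were thus above all others, by 0.31 ± 0.04 on the log2 scale. MTA3 was higher by 0.28, at 74.3 and 73.9 CPM against 57.2 to 67.3. RBBP7, a histone-binding subunit, was at 140 and 138 CPM in siGATAD2A, 208 and 195 in siHDAC2 and 176 in both siKDM1A libraries, a difference of -0.43 ± 0.04, with siCTL at 207 and 213. Leaving out the targeted genes, 10 of the 13 other subunits tested were not called, and CHD5 was below the filter. Over all genes tested 30.4% were called in either direction, so most genes of any kind were not called. The 10 subunits include CHD4 (-0.05), HDAC1 (0.05), MTA1 (-0.02), MBD3 (0.22) and MTA2 (-0.24). CHD4 shares 46.9% of its exonic length with other genes. HDAC1 was at 263 to 301 CPM in all 6 libraries of the comparison and at 203 and 204 in siCTL.

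Of 19 tested partners of KDM1A, which include HDAC1 and the targeted HDAC2 and KDM1A, 5 were called higher and 3 lower. HDAC2 and KDM1A are among the 5 by design of the groups, and the others are RCOR1, RCOR3 and GFI1. Over all genes tested, 12.5% were called higher and 17.9% lower. The scaffold gene RCOR1 was at 88.0 and 86.9 CPM in siGATAD2A and 70.2 to 72.8 in the enzyme libraries (0.29 ± 0.04). RCOR3 was close to siHDAC2 (0.005) and above siKDM1A (0.54), since siKDM1A was the low group at 18.9 and 22.7 CPM. The related demethylase gene KDM1B was at 21.5 and 25.1 CPM in siGATAD2A and 31.4 to 36.7 in the enzyme libraries. The zinc finger gene ZNF217 (-0.27) was lower too, and the repressor gene GFI1 (0.32) was higher. REST, which recruits CoREST to neuronal genes, was not called (-0.19).

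Neuronal genes that REST holds down are mostly silent in this line, and 17 of 52 passed the filter. Of these, 9 were called higher (52.9%) and 4 lower (23.5%), a median of 0.29, beside 12.5% and 17.9% over all genes tested. BDNF, a neurotrophin, was at 23.9 and 22.9 CPM in siGATAD2A, 10.3 and 10.1 in siHDAC2, 13.3 and 14.2 in siKDM1A and 7.3 in both siCTL libraries, so all 3 knockdowns were above siCTL and siGATAD2A the highest. GDAP1 (0.70) and STMN3 (0.68) were higher than each enzyme knockdown. The adhesion gene L1CAM, of which 6.04% is shared, was at 8.54 and 8.78 CPM in siGATAD2A, 17.8 and 18.5 in siHDAC2 and 33.1 and 34.0 in siKDM1A, and SYT11 had the same order (-1.34). Of the germline genes, 8 of 67 passed the filter. Of these, 3 were called higher (37.5%) and 2 lower (25%), beside the same 12.5% and 17.9%, with a median of -0.085. The lower ones, TEX15 (-0.71) and SYCP2 (-0.64), were lower than each enzyme knockdown. CTCFL, the testis paralog of CTCF, was the largest of the higher ones at 5.25 and 6.52 CPM against 1.62 to 3.62. CTCFL passed the filter only through siGATAD2A (0.659 FPKM, against 0.293 in siHDAC2 and 0.222 in siKDM1A), so its call is tied to the filter.

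The cell cycle genes for which the study had primers were all tested, and 5 of 18 were called higher and 2 lower with a median of 0.12. These are 27.8% and 11.1%, beside 12.5% and 17.9% over all genes tested. E2F1, an activator of S phase genes, was at 194 and 191 CPM in siGATAD2A, 127 and 141 in siHDAC2, 116 and 113 in siKDM1A and 130 and 138 in siCTL. CDCA5 (0.43), CDK6 (0.42), CDC25A (0.39) and E2F2 (0.33) were higher. The phosphatase gene CDC25B was at 197 and 192 CPM in siGATAD2A and 275 to 293 in the enzyme libraries, and CDKN2C, an inhibitor of CDK4 and CDK6, was also lower (-0.37). CDK6 and CDKN2C were called against siHDAC2 (0.60 and -0.53) and not against siKDM1A (0.25 and -0.20). E2F8 was not called against the mean (0.26, a fold just under the limit). The study chose this list on its own samples, so it is not independent evidence of a direction. In the wider lists of the Seurat package, 2 higher and 3 lower of 43 S phase genes and 2 higher and 5 lower of 53 G2/M genes were below the background in both directions.

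Other pathways held single genes, and their shares are set beside 12.5% called higher and 17.9% called lower over all genes tested. In the WNT list 8 were higher and 8 lower of 51 (15.7% each), near the shares over all genes. Among them were the receptor LGR5 (1.08) and the ligand WNT9A, at 5.91 and 5.93 CPM in siGATAD2A and 14.2 to 22.5 in the enzyme libraries. In the TGF-beta and BMP list 5 were higher (19.2%) and 7 lower (26.9%) of 26. The ligand genes BMP2 (0.82) and TGFB2 (0.90) were higher and the latent binding protein genes LTBP2 (-1.23) and LTBP1 (-0.80) lower. Of 34 glycolysis and hypoxia genes, 4 were higher (11.8%) and 7 lower (20.6%), again near the shares over all genes. NDRG1, at 61.9 and 61.4 CPM in siGATAD2A, 96.4 and 101 in siHDAC2 and 139 and 132 in siKDM1A, was at the lower end. Of 9 metallothionein and zinc transporter genes, 3 were lower and none higher, and the metal-binding MT2A was at 7.17 and 5.54 CPM against 13.9 to 21.3 in the enzyme libraries. Of 46 genes tested from a list of core histones that also holds linker histones, 6 were higher (13%) and 5 lower (10.9%). These shares were near or below those over all genes.

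The ribosomal, cholesterol synthesis and mitochondrial lists, which served as a reference, moved little. Of 84 ribosomal protein genes, 3 were higher and 9 lower with a median of 0.01, and the largest of them were paralogs, RPL3L (1.28) and RPL7L1 (-0.81). Of 24 cholesterol synthesis genes, 1 was higher and 1 lower, and of the 13 genes encoded in mitochondria MT-ND2 (0.28) alone was called. Clustered protocadherins had 5 higher (16.1%) and 7 lower (22.6%) of 31, near the 12.5% and 17.9% over all genes tested. Their direction depended on the enzyme. Against siHDAC2 4 were higher and 9 lower (median -0.142), and against siKDM1A 8 were higher and 2 lower (median 0.179). Several protocadherins share their last exons, so reads cannot be assigned with certainty.

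A mean over siHDAC2 and siKDM1A stands for unlike values in some genes. In 30 genes siGATAD2A was called higher than siHDAC2 and lower than siKDM1A, and in 8 the reverse, and 34 of these 38 were not called against the mean. EMILIN2, an extracellular matrix glycoprotein, was at 9.24 and 9.89 CPM in siGATAD2A, 5.65 and 4.92 in siHDAC2 and 16.1 and 18.9 in siKDM1A, with siCTL at 4.13 and 4.50. The inflammatory protein gene IL32 was at 20.8 and 18.5, 11.3 and 12.1, and 43.0 and 42.2 CPM in the same order of groups, with siCTL at 25.4 and 28.6. NMRK2, a kinase of the nicotinamide riboside pathway, and AGAP2, a GTPase-activating protein of the ARF family, had the same order. AGAP2 passed the filter only through siKDM1A (0.76 FPKM, against 0.29 in siHDAC2 and 0.435 in siGATAD2A), so its calls are tied to the filter. In all 4 genes siGATAD2A lay between the enzyme knockdowns, and a value near 0 against their mean hides a difference from each.

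Among 2741 lncRNA genes tested with the coding genes, 264 (9.63%) were called higher and 235 (8.57%) lower in siGATAD2A. LCAL1 (chr6:80017386-80023101 in GRCh37, minus strand) was at 6.30 and 6.10 CPM in siGATAD2A, 1.24 and 1.47 in siHDAC2, 1.36 and 1.33 in siKDM1A and 1.16 and 0.979 in siCTL, a log2 difference of 2.18 ± 0.18 (edgeR adjusted p = 8.4e-16). In this gene the enzyme knockdowns and siCTL were alike and siGATAD2A stood apart. LCAL1 passed the filter through siGATAD2A alone (1.38 FPKM, against 0.301 in siHDAC2 and 0.299 in siKDM1A), so its call is tied to the filter. The genes, ENSG00000184441 on chromosome 21 (1.29) and ENSG00000270277 on chromosome 2 (1.2), neither with a symbol, were higher too. FMNL1-DT was at 0.822 and 1.11 CPM in siGATAD2A and 2.63 to 3.48 in the enzyme libraries (-1.66 ± 0.24), and ENSG00000273760 (-1.35) and LINC01116 (-1.08), were lower.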

How the data were processed

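RNA-seq counts of 6 HEK293T libraries (2 each of siGATAD2A, siHDAC2 and siKDM1A) were compared, with siCTL shown beside them. Per library, the authors deposited unnormalized counts (read pairs on each Ensembl gene) in 3 columns (no strand, forward, reverse), with the layout of STAR's gene counts. The submitters' processing notes name STAR 2.7.10, CASAVA 1.4 and hg19, whereas the paper's methods name TopHat, HOMER and DESeq2. Reverse-strand counts were used, as the kit is directional. Pairs with several locations (5.44% to 6.74% of fragments here), on no feature (19.1% to 21.2%) or ambiguous are left out of these counts, which lowers genes with near-identical copies. Identifiers were matched to GENCODE 44 on GRCh37, 58662 of 60660 (96.7%), and the rest left out.

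CPM was scaled by TMM factors, and FPKM used exonic length. Coding genes whose group mean exceeded 0.5 FPKM in siGATAD2A, siHDAC2 or siKDM1A were tested by edgeR 4.0.16 (quasi-likelihood, 3 group means, contrast of siGATAD2A with the equally weighted enzyme means), and the test was checked on simulated data. Standard errors come from the same fit. An exact permutation test of 2 against 4 libraries cannot go below 0.133, so none is printed. Genes are named if targeted, if among the 10 largest differences in a direction (called against the mean and each enzyme, both libraries outside the range of the others, mean of at least 2 CPM), if among the 4 largest with opposite calls, or as the NuRD subunits and KDM1A partners called and up to 3 called members a direction of each other list. Further list members were named after their values were seen, to show each list's range. The groups, lists and tests were chosen with earlier results of these data known. Alternatives were another normalization (RLE), DESeq2 1.42.0, 3 other filters, all 12 libraries, the enzyme libraries as 1 group, a replicate block, unstranded counts, no fold minimum, a test against the fold (glmTreat), corrections for GC content and exonic length, and each library left out in turn. Some named list members are not reported here.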

Additional observations from a re-analysis of the deposited data

Results flagged for a closer look

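Genes were flagged where siGATAD2A was higher than one enzyme knockdown and lower than the other, with the difference between siHDAC2 and siKDM1A itself tested in the same edgeR fit. For EMILIN2 the log2 difference of siHDAC2 minus siKDM1A was -1.74 ± 0.13 (SE, edgeR adjusted p = 7.5e-15), made of 0.87 for siGATAD2A against siHDAC2 and -0.87 against siKDM1A. For IL32 it was -1.85 ± 0.09, with 0.74 and -1.11. For NMRK2 it was -1.62 ± 0.12, with 0.69 and -0.92. For AGAP2 it was -1.36 ± 0.20, with 0.56 and -0.80, at 1.79 to 6.02 CPM in the 6 libraries. AGAP2 passed the filter only through siKDM1A, where it is high. With 2 libraries a group, no library was tested for standing apart from its group.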

How the results depend on the processing

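Without the fold minimum the main comparison called 3475 genes higher and 3532 lower, siGATAD2A was higher than siHDAC2 in 3085 and than siKDM1A in 3291, and siHDAC2 was higher than siKDM1A in 1801 and lower in 1892. With the test against a fold of 1.2 the main comparison called 729 and 1319, against siHDAC2 710 and 1175, against siKDM1A 779 and 1396, and siHDAC2 against siKDM1A 214 and 413. With each library left out in turn the main counts were 1427 to 1610 higher and 2101 to 2230 lower. DESeq2 called 1455 higher and 2003 lower, and the 4 enzyme libraries as 1 group 1210 and 1763, where HDAC2 (0.68) and KDM1A (0.55) lost their calls because their targeted libraries widen the spread of that group. Genes called higher had a median GC content of 51.8%, those called lower 47.4%. Correction for GC content gave 1961 higher and 1980 lower (49.8% of calls higher, beside 41.2%), correction for exonic length 1966 and 1980, and against siKDM1A both raised the higher share from 41.8% to 52.5%. The cause was not tested. Over the alternatives the number called higher in the ERK feedback list was 11 to 15, and the number called lower was 17 to 30 in the p53 list and 15 to 29 in the matrix list, and immediate early genes called higher ranged from 4 to 16. Of the 20 leading genes, TEKTIP1 (unstranded counts) and FAM131B (enzyme libraries as 1 group) each lost a call once.

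EMILIN2, near 0 and not called, changed sign without a filter (0.0013), with the replicate block (0.0013), with the GC (0.0055) and length (0.035) corrections, and with some libraries left out (range -0.0576 to 0.0543 over the 6). With each library left out NMRK2 ranged from -0.1995 to 0.0084 and AGAP2 from -0.2066 to 0.0081, the upper values without siHDAC2 replicate 2, and with unstranded counts H2AC15 was at 0.0. Replicate numbers share no deviation between groups (correlations of -0.0617, 0.0644 and -0.0876), and with the replicate block the main comparison called 1569 higher and 2230 lower. At this depth, genes under 1 CPM rest on fewer than 30 read pairs a library.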

Other observations

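The calls were not spread evenly over the chromosomes. On the X chromosome 41 of 432 tested genes (9.49%) were higher and 104 (24.1%) lower, and on chromosome 4 34 of 457 (7.44%) were higher and 109 (23.9%) lower, beside 12.5% and 17.9% over all chromosomes. On chromosome 19, with 950 genes tested, the shares were 13.4% and 13.1%. The medians of the log2 difference were -0.04 on X and chromosome 4 and 0.03 on chromosome 19. Genes called lower were also less expressed, with a median of 20.7 CPM, than those called higher, with 37 CPM, and those not called, with 45.1 CPM.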
